A study of Arabidopsis thaliana with 12 samples.

Results

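The 41 genes described here make up the core of the Arabidopsis cell-cycle engine. They were chosen by locus and hold 8 A-type, 9 B-type and 10 D-type cyclins, the cyclin-dependent kinase CDKA;1 with the 4 CDKB kinases, the 7 KRP inhibitors (KRP1 to KRP7), and SIAMESE (SIM) with SIAMESE-RELATED 1 (SMR1). A probe was found for 40 of them, all but CYCD5;1 (AT4G37630), among 25405 loci with a probe on the array. Of these, 37 were bright enough to be tested, among 19027 genes tested in all.

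A cyclin-dependent kinase acts only when bound to a cyclin. D-type cyclins with CDKA;1 phosphorylate the retinoblastoma protein, which frees E2F factors to switch on the genes of DNA replication. A-type cyclins act from S phase to mitosis, and B-type cyclins together with the plant-specific CDKB kinases act from G2 into mitosis. KRP proteins and the SIM/SMR proteins bind cyclin and kinase complexes and hold them inactive. In a seedling these genes are expressed above all in the meristems and young organs, where cells divide, and SIM family inhibitors are known for driving the switch from division to endoreduplication.

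The RNA came from whole 10-day-old seedlings of the Landsberg erecta ecotype. The proatcape1 line carries a T-DNA insertion in PROAtCAPE1 (AT4G33730), the gene of a secreted CAP protein that is the precursor of the peptide AtCAPE1, and it is 1 line. The groups were proatcape1 in 125 mM NaCl for 12 h (salt-treated proatcape1), wild type in 125 mM NaCl for 12 h (salt-treated wild type), proatcape1 in 1/2 MS medium at 0 h (proatcape1 control) and wild type in that medium at 0 h (wild type control), with 3 arrays of separate experiments in each and seedlings pooled within a sample. Control seedlings were taken at 0 h and salt-treated seedlings at 12 h. The effect of NaCl and that of the 12 h therefore cannot be told apart, also where salt effects are compared between genotypes. Within each condition the 2 genotypes were compared at the same hour.

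Each array measured 1 sample with 1 dye. Signals are given relative to the 75th percentile of all probes on the same array, as a percentage of it, so that 100% is a bright probe of that array. Such a value compares 1 gene between arrays and not 1 gene with another. A gene was called when its adjusted p (limma, Benjamini-Hochberg over all genes tested) was at most 0.05 and its change was over 1.5-fold, and changes are given in log2 with their SE. The 75th percentile lay between 1802 and 2152 in salt-treated proatcape1, between 2161 and 2278 in salt-treated wild type, between 1979 and 2394 in proatcape1 control and between 2063 and 2390.0 in wild type control. Between 71.8 and 78.8% of probes were well above background and no spot was saturated. Over all genes the median log2 change with salt was -0.13 in proatcape1 and -0.11 in wild type. PROAtCAPE1 itself gave 0.186, 0.344 and 0.165% in salt-treated proatcape1 and 2.48, 2.00 and 2.23% in salt-treated wild type, against 0.250, 0.182 and 0.163% in proatcape1 control and 27.4, 36.4 and 28.6% in wild type control. It was not well above background on any proatcape1 array, so that the difference between genotypes was at least 2.31-fold under salt and at least 34.8-fold in control, as bounds set by the dimmest signals well above background.

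After salt most of the machinery of division was lower in both genotypes. In salt-treated proatcape1, 26 of the 37 members fell and 1 (KRP1) rose, where 45.8% of all genes tested were called (26.2% lower and 19.6% higher). In salt-treated wild type 23 fell and 0 rose, where 39.3% of all genes were called (21.8% lower and 17.5% higher). The median member changed by -1.08 in proatcape1 and by -0.69 in wild type. In proatcape1 35 of the 37 changes were below 0 (57.7% of all genes), 32 were so on all 3 slides (52.2% of all genes), and at any size 30 passed the adjusted p as lower and 1 as higher (48.6% and 33.7% of all genes). In wild type 31 were below 0 (58.2% of all genes), 29 on all 3 slides (50.7% of all genes), and at any size 27 passed as lower and 2 as higher (46.8% and 31.9% of all genes). All arrays of salt lay below all arrays of control for 30 members and above them for 1 in proatcape1 (49.8% and 34.9% of all genes), and below for 28 and above for 1 in wild type (48.2% and 32.8% of all genes). The 2 comparisons use separate arrays of the same 3 slides within 1 fit. In both, 22 members fell, which is 84.6% of the proatcape1 list and 95.7% of the wild type list. The share of all genes that fell in both was not computed, so the overlap is not set against it. In RNA of whole seedlings, fewer dividing cells and less of these transcripts per cell cannot be told apart.

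**Figure D1:**
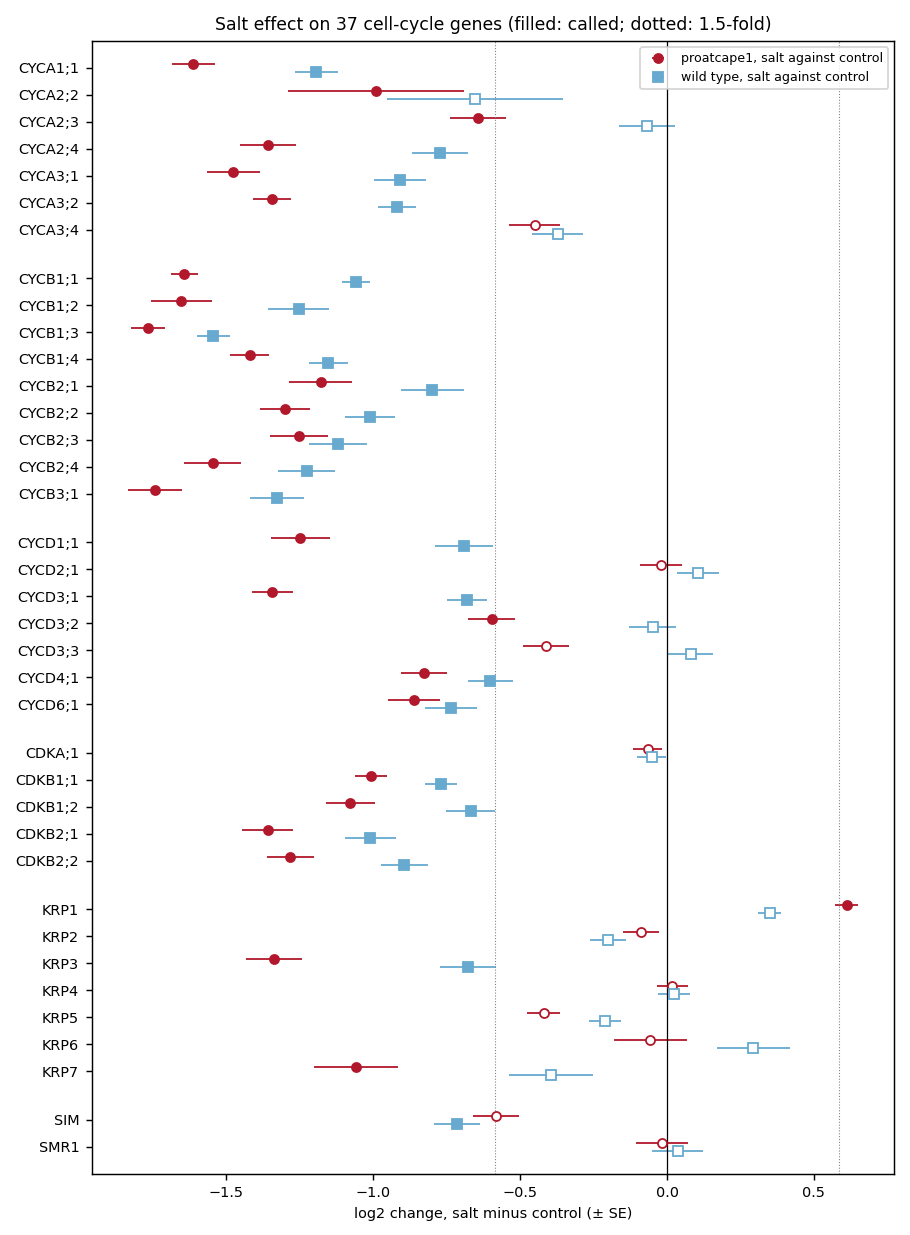
Log2 change with salt (x axis, salt minus control, ± SE of the fit) of the 37 tested members, grouped by class; circles are proatcape1, squares are wild type, filled symbols were called and dotted lines mark 1.5-fold. The A-type, B-type and CDKB genes lie left of 0 in both genotypes, with the proatcape1 symbol further left, while CDKA;1, CYCD2;1, KRP4 and SMR1 lie near 0 and KRP1 lies to the right.

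The A-type cyclins fell in 6 of 7 tested members in proatcape1 and in 4 of 7 in wild type. CYCA1;1 (AT1G44110), a mitotic A-type cyclin, gave 33.4, 37.9 and 39.8% in salt-treated proatcape1 and 44.3, 48.1 and 46.5% in salt-treated wild type, against 113, 106 and 120.1% in proatcape1 control and 99.7, 108 and 109.8% in wild type control. It changed by -1.61 ± 0.073 in proatcape1 (adjusted p = 6.88e-09) and by -1.19 ± 0.073 in wild type (adjusted p = 8.63e-08). This was the deepest fall among the 7 tested members of the class in each genotype, and the salt and control arrays did not overlap. The A3 cyclins are linked to S phase. CYCA3;1 (AT5G43080) gave 4.56, 4.01 and 4.44% in salt-treated proatcape1 and 5.29, 6.78 and 6.25% in salt-treated wild type, against 11.9, 11.4 and 12.8% in proatcape1 control and 10.96, 12.0 and 11.2% in wild type control, and its log2 level shifted by -1.48 (proatcape1) and -0.91 (wild type). CYCA3;2 (AT1G47210) gave 41.4, 40.9 and 43.6% in salt-treated proatcape1 and 51.4, 55.8 and 60.8% in salt-treated wild type, against 106, 103 and 111% in proatcape1 control and 104, 111 and 102% in wild type control, with changes of -1.34 and -0.92 in proatcape1 and wild type. In both genes the 3 salt-treated proatcape1 arrays lay below the 3 salt-treated wild type arrays, which in turn lay below every control array. CYCA3;4 (AT1G47230) was not called in either genotype, since its change stayed under 1.5-fold. Its relative signal was 8.04, 9.84 and 7.93% in salt-treated proatcape1 and 8.81, 9.91 and 9.15% in salt-treated wild type, against 11.7, 11.2 and 12.1% in proatcape1 control and 11.4, 13.0 and 11.7% in wild type control, and its change was -0.45 (adjusted p = 5.65e-04) in proatcape1 and -0.37 (adjusted p = 0.00229) in wild type.

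The A2 cyclins, which act with CDKB1 in holding cells in the mitotic cycle, were called in 3 tested members in proatcape1 and in 1 in wild type. CYCA2;3 (AT1G15570) gave 32.7, 35.6 and 33.1% in salt-treated proatcape1 and 44.5, 53.6 and 51.1% in salt-treated wild type, against 51.6, 47.8 and 59.5% in proatcape1 control and 47.5, 52.9 and 55.7% in wild type control. Only the salt-treated proatcape1 arrays stood apart, with a change of -0.64 ± 0.095 (adjusted p = 7.41e-05) against -0.067 ± 0.095 in wild type (adjusted p = 0.534), and the difference between these 2 changes was -0.58 (adjusted p = 0.0328, under 1.5-fold). Without the third proatcape1 control array the change in proatcape1 was -0.56, and with another background correction (normexp) -0.57, both under the fold limit. CYCA2;4 (AT1G80370) gave 5.44, 5.502 and 6.47% in salt-treated proatcape1 and 7.67, 8.996 and 8.17% in salt-treated wild type, against 14.5, 14.03 and 16.0% in proatcape1 control and 12.8, 13.9 and 15.7% in wild type control, and fell in both genotypes (-1.36 and -0.77 in proatcape1 and wild type). CYCA2;2 had the largest SE of all members, with 9.41, 3.62 and 5.08% in salt-treated proatcape1 and 7.82, 7.68 and 5.66% in salt-treated wild type, against 10.67, 10.9 and 11.7% in proatcape1 control and 12.5, 12.9 and 8.19% in wild type control. The first salt-treated proatcape1 array lay above the lowest wild type control array, and the gene was called in proatcape1 (-0.99 ± 0.30, adjusted p = 0.00986) and not in wild type (-0.65 ± 0.30, adjusted p = 0.0659). With normexp its change in proatcape1 was -0.58 (adjusted p = 0.00797), which is under the fold limit. CYCA2;1 (AT5G25380) was too dim for the filter, at 1.40, 1.83 and 1.46% in salt-treated proatcape1 and 1.66, 1.49 and 1.28% in salt-treated wild type, against 3.68, 2.98 and 3.16% in proatcape1 control and 4.75, 3.30 and 2.95% in wild type control, all of them well above background. Fitted with no filter on dim probes, it changed by -1.07 in proatcape1 (adjusted p = 0.000507) and by -1.29 in wild type (adjusted p = 0.000168).

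B-type cyclins, the partners of CDKs at the entry into mitosis, were the class with the lowest median, and all 9 fell in both genotypes. Their median change was -1.55 in proatcape1 and -1.15 in wild type. CYCB1;1 (AT4G37490), the common reporter of cells in G2 and mitosis, gave 13.2, 13.3 and 13.96% in salt-treated proatcape1 and 18.8, 18.9 and 19.3% in salt-treated wild type, against 43.1, 39.8 and 43.4% in proatcape1 control and 39.0, 38.9 and 40.9% in wild type control. The 3 arrays of each salt group lay within 1 percentage point of each other, and the change was -1.64 ± 0.046 (3.12-fold lower, adjusted p = 3.14e-10) in proatcape1 and -1.06 ± 0.046 (2.08-fold lower, adjusted p = 7.77e-09) in wild type. CYCB1;2 (AT5G06150) gave 27.3, 32.1 and 34.3% in salt-treated proatcape1 and 38.1, 41.1 and 41% in salt-treated wild type, against 96.4, 88.9 and 109% in proatcape1 control and 84.6, 99.5 and 103% in wild type control. CYCB1;3 (AT3G11520) gave 30.5, 32.9 and 33.0% in salt-treated proatcape1 and 34.8, 35.5 and 36.5% in salt-treated wild type, against 111, 104 and 112% in proatcape1 control and 96.1, 107.1 and 108% in wild type control. Its fall was the deepest of all members in each genotype, at -1.77 ± 0.057 in proatcape1 (adjusted p = 7.55e-10) and -1.54 ± 0.057 in wild type (adjusted p = 2.55e-09). CYCB1;4 (AT2G26760) gave 29.5, 34.4 and 34.2% in salt-treated proatcape1 and 38.4, 35.7 and 36.4% in salt-treated wild type, against 90.7, 84.8 and 86.2% in proatcape1 control and 79.2, 86.7 and 80.0% in wild type control. In these 4 B1 cyclins every salt-treated proatcape1 array was below every salt-treated wild type array.

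Among the B2 cyclins, CYCB2;1 (AT2G17620) gave 4.93, 5.80 and 6.08% in salt-treated proatcape1 and 6.40, 6.38 and 6.29% in salt-treated wild type, against 13.9, 11.3 and 12.8% in proatcape1 control and 9.53, 12.1 and 11.7% in wild type control, with changes of -1.18 in proatcape1 and -0.80 in wild type, the smallest of the class. With normexp its change in wild type was -0.58 and not called, so that 8 of the 9 B-type cyclins fell there. CYCB2;2 (AT4G35620) gave 15.1, 17.7 and 18.1% in salt-treated proatcape1 and 20.0, 19.5 and 19.9% in salt-treated wild type, against 41.7, 38.7 and 44.9% in proatcape1 control and 36.5, 39.6 and 43.7% in wild type control. These arrays fell into a salt and a control set with no overlap. CYCB2;3 (AT1G20610) gave 4.89, 4.90 and 5.74% in salt-treated proatcape1 and 5.502, 5.54 and 5.64% in salt-treated wild type, against 10.71, 12.6 and 13.8% in proatcape1 control and 10.9, 12.4 and 13.1% in wild type control, with the salt-treated genotypes overlapping. CYCB2;4 (AT1G76310) gave 9.51, 11.02 and 12.6% in salt-treated proatcape1 and 13.5, 13.1 and 12.7% in salt-treated wild type, against 31.4, 29.8 and 35.2% in proatcape1 control and 28.8, 30.7 and 32.4% in wild type control, and CYCB3;1 (AT1G16330), a B-type cyclin of its own subgroup, gave 6.98, 7.65 and 8.43% in salt-treated proatcape1 and 8.60, 9.29 and 10.5% in salt-treated wild type, against 25.4, 24.0 and 27.6% in proatcape1 control and 22.0, 24.2 and 24.9% in wild type control. The changes of these 4 genes ranged in proatcape1 between -1.74 and -1.25, and in wild type between -1.33 and -1.01.

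The D-type cyclins, which couple hormones and sugar to the start of the cycle, were mixed, with 5 of 7 tested members lower in proatcape1 and 4 of 7 in wild type. CYCD3;1 (AT4G34160), the cytokinin- and sugar-responsive member, gave 51.8, 53.2 and 55.5% in salt-treated proatcape1 and 75.3, 89.7 and 82.5% in salt-treated wild type, against 135, 131 and 141% in proatcape1 control and 123, 135 and 139% in wild type control. The order was the same on every array, with salt-treated proatcape1 lowest, salt-treated wild type next and both control groups highest, and the change was -1.34 ± 0.069 in proatcape1 (adjusted p = 1.66e-08) against -0.68 ± 0.069 in wild type (adjusted p = 4.32e-06). CYCD3;2 (AT5G67260) gave 70.4, 74.8 and 72.3% in salt-treated proatcape1 and 97.8, 109 and 112% in salt-treated wild type, against 109, 102 and 118% in proatcape1 control and 99.8, 111 and 119.7% in wild type control. The wild type arrays overlapped between salt and control (-0.049 ± 0.079, adjusted p = 0.579), whereas all salt-treated proatcape1 arrays lay below them (-0.60 ± 0.079, adjusted p = 3.00e-05). That call stood near the fold limit, with -0.54 without the third proatcape1 control array and -0.58 without the first salt-treated proatcape1 array, and -0.56 with normexp, all under it. CYCD3;3 (AT3G50070) showed the same order at 135, 157 and 143% in salt-treated proatcape1 and 180.2, 206 and 204% in salt-treated wild type, against 199.7, 175 and 203% in proatcape1 control and 189, 177 and 192% in wild type control, but was not called, since its change in proatcape1 was -0.41 ± 0.078 (adjusted p = 4.99e-04) and thus under 1.5-fold.

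CYCD1;1 (AT1G70210) gave 14.7, 13.2 and 12.5% in salt-treated proatcape1 and 16.2, 21.0 and 17.8% in salt-treated wild type, against 30.5, 30.4 and 34.9% in proatcape1 control and 27.3, 30.9 and 30.2% in wild type control, and fell by 2.37-fold in proatcape1 and 1.61-fold in wild type. CYCD4;1 (AT5G65420), known from divisions in the root, gave 23.2, 22.9 and 22.0% in salt-treated proatcape1 and 21.8, 24.6 and 23.1% in salt-treated wild type, against 41.6, 39.0 and 40.2% in proatcape1 control and 33.3, 40.2 and 32.3% in wild type control. CYCD6;1 (AT4G03270), the D-type cyclin that SHORT-ROOT and SCARECROW switch on for the formative division of the root ground tissue, gave 6.39, 6.35 and 7.21% in salt-treated proatcape1 and 6.86, 7.08 and 6.62% in salt-treated wild type, against 12.7, 11.1 and 12.4% in proatcape1 control and 9.94, 12.5 and 11.9% in wild type control. In both genes the salt arrays of the 2 genotypes overlapped, and the changes were -0.83 and -0.86 in proatcape1 and -0.60 and -0.73 in wild type. The change of CYCD4;1 in wild type was -0.50 without the second wild type control array and -0.56 without the first salt-treated wild type array, both under the fold limit. With normexp neither gene was called in wild type, at -0.51 for CYCD4;1 and -0.57 for CYCD6;1. CYCD2;1 (AT2G22490) lay between 26.7 and 33.8% on all 12 arrays and was not called. CYCD4;2 and CYCD7;1 did not pass the filter. CYCD4;2 (AT5G10440) lay between 2.50 and 3.38% on all 12 arrays. CYCD7;1 (AT5G02110), which is known from the last division of the stomatal guard mother cell, gave 1.62, 0.944 and 1.20% in salt-treated proatcape1 and 1.14, 3.02 and 1.31% in salt-treated wild type, against 0.714, 0.847 and 0.746% in proatcape1 control and 0.377, 0.573 and 0.810% in wild type control, and was not well above background on any proatcape1 control array and on 1 salt-treated proatcape1 and 2 wild type control arrays. Its signal in salt-treated proatcape1 was at least 1.36-fold higher than in proatcape1 control, where the fit with no filter on dim probes gave an adjusted p of 0.163. In wild type the same fit called CYCD7;1 higher with salt, and so did the fit with the filter on probes well above background.

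**Figure D2:**
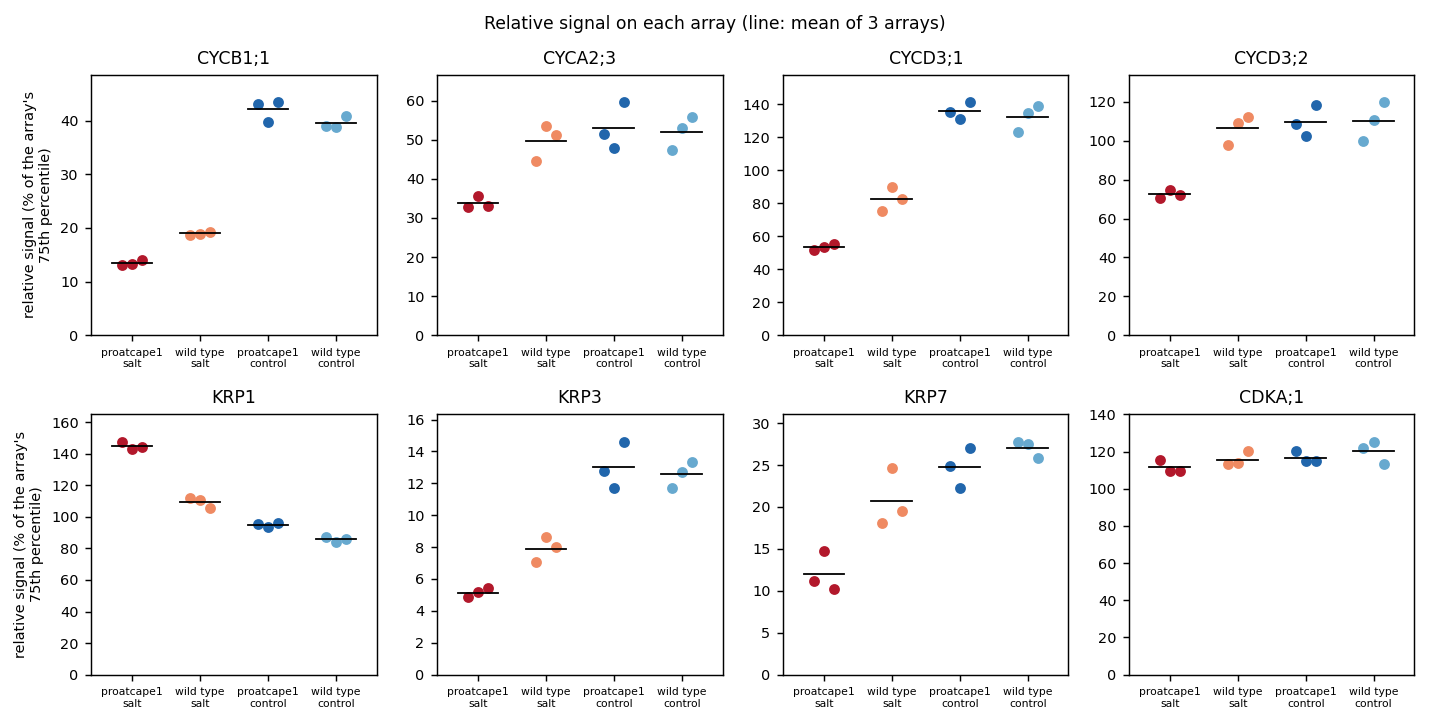
Relative signal (y axis, percent of the array's 75th percentile, from 0) of 8 members on each of the 12 arrays, with the mean of 3 arrays as a line; groups run from salt-treated proatcape1 to wild type control. CYCB1;1, CYCD3;1 and KRP3 step up from salt-treated proatcape1 over salt-treated wild type to both controls, CYCA2;3 and CYCD3;2 are low only in salt-treated proatcape1, KRP1 runs the other way and CDKA;1 is level.

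The kinases split between CDKA;1 and the CDKB genes. CDKA;1 (AT3G48750), the kinase that is present through the whole cycle and whose transcript is not tied to a phase, gave 115, 109 and 109.7% in salt-treated proatcape1 and 113, 114 and 120.1% in salt-treated wild type, against 120.1, 115 and 115% in proatcape1 control and 122, 125 and 113% in wild type control. The groups overlapped, and the change was -0.066 ± 0.049 in proatcape1 (adjusted p = 0.232) and -0.052 ± 0.049 in wild type (adjusted p = 0.343). All 4 CDKB genes, whose transcripts peak from S phase to mitosis, fell in both genotypes. CDKB1;1 (AT3G54180) gave 42.0, 43.3 and 43.2% in salt-treated proatcape1 and 46.5, 47.5 and 48.0% in salt-treated wild type, against 91.2, 82.9 and 84.6% in proatcape1 control and 75.8, 86.2 and 80.2% in wild type control, and CDKB1;2 (AT2G38620) gave 7.49, 8.04 and 7.14% in salt-treated proatcape1 and 9.67, 10.3 and 8.82% in salt-treated wild type, against 16.4, 14.6 and 16.9% in proatcape1 control and 14.3, 14.9 and 16.7% in wild type control. CDKB2;1 (AT1G76540) gave 29.7, 29.7 and 35.2% in salt-treated proatcape1 and 34.3, 36.1 and 40.1% in salt-treated wild type, against 78.7, 77.0 and 86.6% in proatcape1 control and 69.3, 74.0 and 78.9% in wild type control. CDKB2;2 (AT1G20930) gave 9.18, 9.97 and 11.52% in salt-treated proatcape1 and 11.51, 12.3 and 12.4% in salt-treated wild type, against 24.4, 23.5 and 26.4% in proatcape1 control and 21.4, 22.3 and 23.6% in wild type control. Their changes lay between -1.36 and -1.01 in proatcape1 and between -1.01 and -0.67 in wild type, and no salt array reached a control array. With normexp the change of CDKB1;2 in wild type was -0.53, under the fold limit, and 3 of the 4 were called there.

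The inhibitors did not move as 1 group. KRP1 (AT2G23430), an inhibitor whose transcript is known to be induced by abscisic acid, was the only member called higher, and it gave 148, 143 and 144% in salt-treated proatcape1 and 112, 111 and 106% in salt-treated wild type, against 95.5, 93.3 and 96.1% in proatcape1 control and 87.6, 84.1 and 86.2% in wild type control. Every salt-treated proatcape1 array was above every salt-treated wild type array, which was above every control array. It rose in proatcape1 (0.61 ± 0.038, adjusted p = 7.42e-08), while in wild type its change of 0.35 ± 0.038 (adjusted p = 8.45e-06) was under 1.5-fold. The call in proatcape1 stood just past the fold limit, and with normexp background correction the change of KRP1 was 0.58 and no longer counted.

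KRP3 (AT5G48820) moved with the cyclins, at 4.84, 5.16 and 5.41% in salt-treated proatcape1 and 7.04, 8.65 and 8.02% in salt-treated wild type, against 12.8, 11.7 and 14.6% in proatcape1 control and 11.7, 12.7 and 13.3% in wild type control. It fell by 2.53-fold in proatcape1 (adjusted p = 2.01e-07) and by 1.60-fold in wild type (adjusted p = 6.17e-05). With normexp its change in wild type was -0.45 (adjusted p = 0.000256) and under the fold limit. KRP7 (AT1G49620), which like KRP6 is known from the male germline, gave 11.2, 14.7 and 10.2% in salt-treated proatcape1 and 18.1, 24.6 and 19.5% in salt-treated wild type, against 24.9, 22.3 and 27.1% in proatcape1 control and 27.8, 27.5 and 25.9% in wild type control. The salt-treated proatcape1 arrays stood below all others, with a change of -1.06 ± 0.14 (adjusted p = 3.66e-05) in proatcape1 against -0.40 ± 0.14 (adjusted p = 0.0253) in wild type, where it was not called. KRP6 (AT3G19150) was not called in any comparison. It gave 53.4, 55.7 and 55.1% in salt-treated proatcape1 and 71.1, 87.9 and 74.7% in salt-treated wild type, against 60.1, 54.4 and 56.5% in proatcape1 control and 69.2, 50.4 and 72.7% in wild type control. Its salt-treated proatcape1 arrays lay below its salt-treated wild type arrays, and in wild type it changed by 0.29 ± 0.12 (adjusted p = 0.0492) with salt. The 3 remaining inhibitors, KRP2 (AT3G50630), KRP4 (AT2G32710) and KRP5 (AT3G24810), were not called, with changes between -0.42 (KRP5) and 0.018 (KRP4) in proatcape1 and between -0.21 (KRP5) and 0.024 (KRP4) in wild type.

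SIM (AT5G04470), named for the multicellular trichomes of its mutant, gave 79.3, 74.8 and 78.5% in salt-treated proatcape1 and 80.3, 80.4 and 84.1% in salt-treated wild type, against 119.6, 122 and 106.6% in proatcape1 control and 127, 152 and 125% in wild type control. It fell in wild type (-0.72 ± 0.078, adjusted p = 8.16e-06) and in proatcape1 stood just inside the fold limit (-0.58 ± 0.078, adjusted p = 3.58e-05). The difference between these 2 changes was 0.14 (adjusted p = 0.457). SMR1 (AT3G10525), known from the giant cells of the sepal, gave 224, 273 and 232% in salt-treated proatcape1 and 245, 296 and 251% in salt-treated wild type, against 239, 245 and 251% in proatcape1 control and 271, 253 and 246% in wild type control. All groups of SMR1 overlapped, and its changes were -0.017 in proatcape1 and 0.036 in wild type.

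Averaged over each class on each array, the log2 level of the A-type cyclins was -2.94 ± 0.070 in salt-treated proatcape1 and -2.55 ± 0.090 in salt-treated wild type, against -1.82 ± 0.085 in proatcape1 control and -1.86 ± 0.067 in wild type control (SD, n = 3 arrays each). The B-type mean was -2.86 ± 0.13 in salt-treated proatcape1 and -2.61 ± 0.019 in salt-treated wild type, and -1.36 ± 0.085 in proatcape1 control and -1.44 ± 0.10 in wild type control. In both classes the 2 salt groups did not overlap, and the 2 controls did. The D-type mean was -1.66 ± 0.026, -1.33 ± 0.098, -0.90 ± 0.071 and -0.96 ± 0.066 in the same order of groups. For the kinases it was -1.95 ± 0.048, -1.75 ± 0.037, -0.99 ± 0.061 and -1.07 ± 0.056, and for the KRP inhibitors -1.44 ± 0.017, -1.23 ± 0.078, -1.11 ± 0.062 and -1.11 ± 0.025. The KRP mean thus spanned a narrower range than any cyclin class, but it averages members that moved in opposite directions (KRP3 -1.34 and KRP1 0.61 with salt in proatcape1). For SIM and SMR1 the mean was 0.45 ± 0.054, 0.55 ± 0.069, 0.75 ± 0.040 and 0.89 ± 0.084 in the same order of groups. There the 2 salt groups overlapped and the 2 controls did not.

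**Figure D3:**
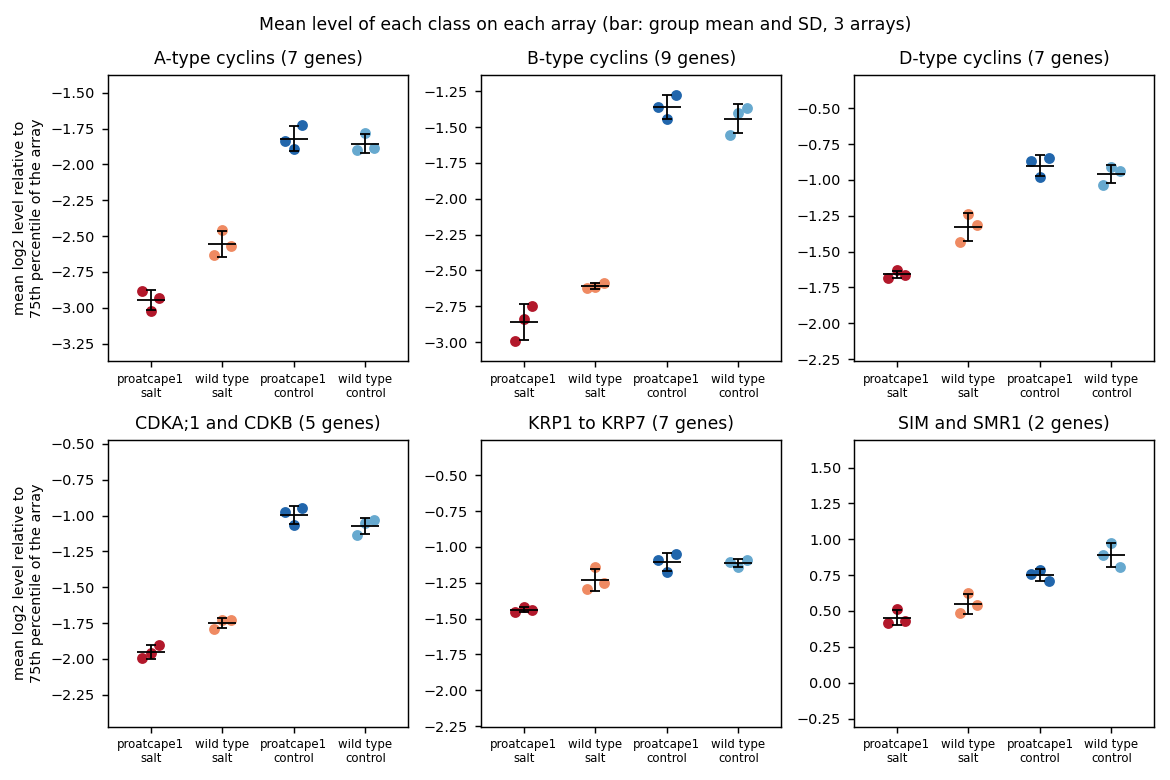
Mean log2 level of the tested members of each class on each of the 12 arrays (y axis, relative to the 75th percentile of the array, every panel spanning the same range of log2 units), with group mean and SD. For the A-type, B-type and D-type cyclins, the kinases and the KRP inhibitors the 3 salt-treated proatcape1 arrays lie below the 3 salt-treated wild type arrays and the 2 control groups overlap.

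In control medium no member passed the test between the genotypes. Of 37 members 0 were called between proatcape1 and wild type by limma, 0 also at an unadjusted p of at most 0.05 with the same fold limit, and 0 under each of the other settings, where 2.12% of all genes tested were called (1.16% lower and 0.967% higher). At any size 0 members passed the adjusted p, where 2.49% of all genes passed as lower and 3.27% as higher. The differences lay between -0.21 (SIM, adjusted p = 0.16) and 0.20 (CYCD4;1, adjusted p = 0.185), with a median of 0.065, and 28 of the 37 were above 0 and 9 below, where 48.5% of all genes were below 0. The arrays of the genotypes did not overlap for 3 members, 2 of them higher and SIM lower in proatcape1 (14.3% and 11.6% of all genes). KRP1 and KRP2 were higher on every proatcape1 control array than on any wild type control array (0.14 with adjusted p = 0.0552 and 0.13 with adjusted p = 0.294), which does not reach the fold limit.

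Under salt 3 members were called between the genotypes, all lower in proatcape1, where 4.66% of all genes tested were called (1.95% lower and 2.71% higher). KRP7 differed most, with the values given above and a difference of -0.79 ± 0.14 (1.73-fold, adjusted p = 0.00324). CYCD3;1 was 1.54-fold lower (-0.62 ± 0.069, adjusted p = 4.17e-04) and KRP3 was 1.53-fold lower (-0.62 ± 0.096, adjusted p = 0.00179). Each was lower on all 3 slides, where each slide holds 1 array of every group. The slide differences were -0.69, -0.75 and -0.94 for KRP7, -0.54, -0.75 and -0.57 for CYCD3;1, and -0.54, -0.74 and -0.57 for KRP3. Without the second salt-treated wild type array the difference of CYCD3;1 was -0.56 and that of KRP3 was -0.55, so that 1 member (KRP7) was called. Without the first salt-treated proatcape1 array the difference of KRP3 was -0.58, and with normexp it was -0.39 (adjusted p = 0.00489), both under the fold limit. Without the first salt-treated wild type array 6 members were called.

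Most members leaned the same way with smaller sizes. The difference was below 0 in 35 of 37 members, against 52.5% of all genes, and below 0 on all 3 slides in 29, against 36.1% of all genes. The median member differed by -0.24, against -0.012 over all genes. At any size, 17 members passed the adjusted p as lower (19.4% of all genes) and 2 as higher (14.6% of all genes). The arrays of the genotypes did not overlap for 24 lower and 2 higher members (26.4% and 22.4% of all genes). The 2 higher ones were KRP1 (0.41, adjusted p = 1.72e-04) and KRP2 (0.24, adjusted p = 0.0158). Both are inhibitors, while KRP3, KRP6 (-0.50, adjusted p = 0.0126) and KRP7 were lower. CYCA2;3 (-0.56), CYCD3;2 (-0.55), CYCA2;4 (-0.51), CYCB1;1 (-0.50) and CYCA3;1 (-0.49) came closest to the fold limit among the cyclins not called.

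**Figure D4:**
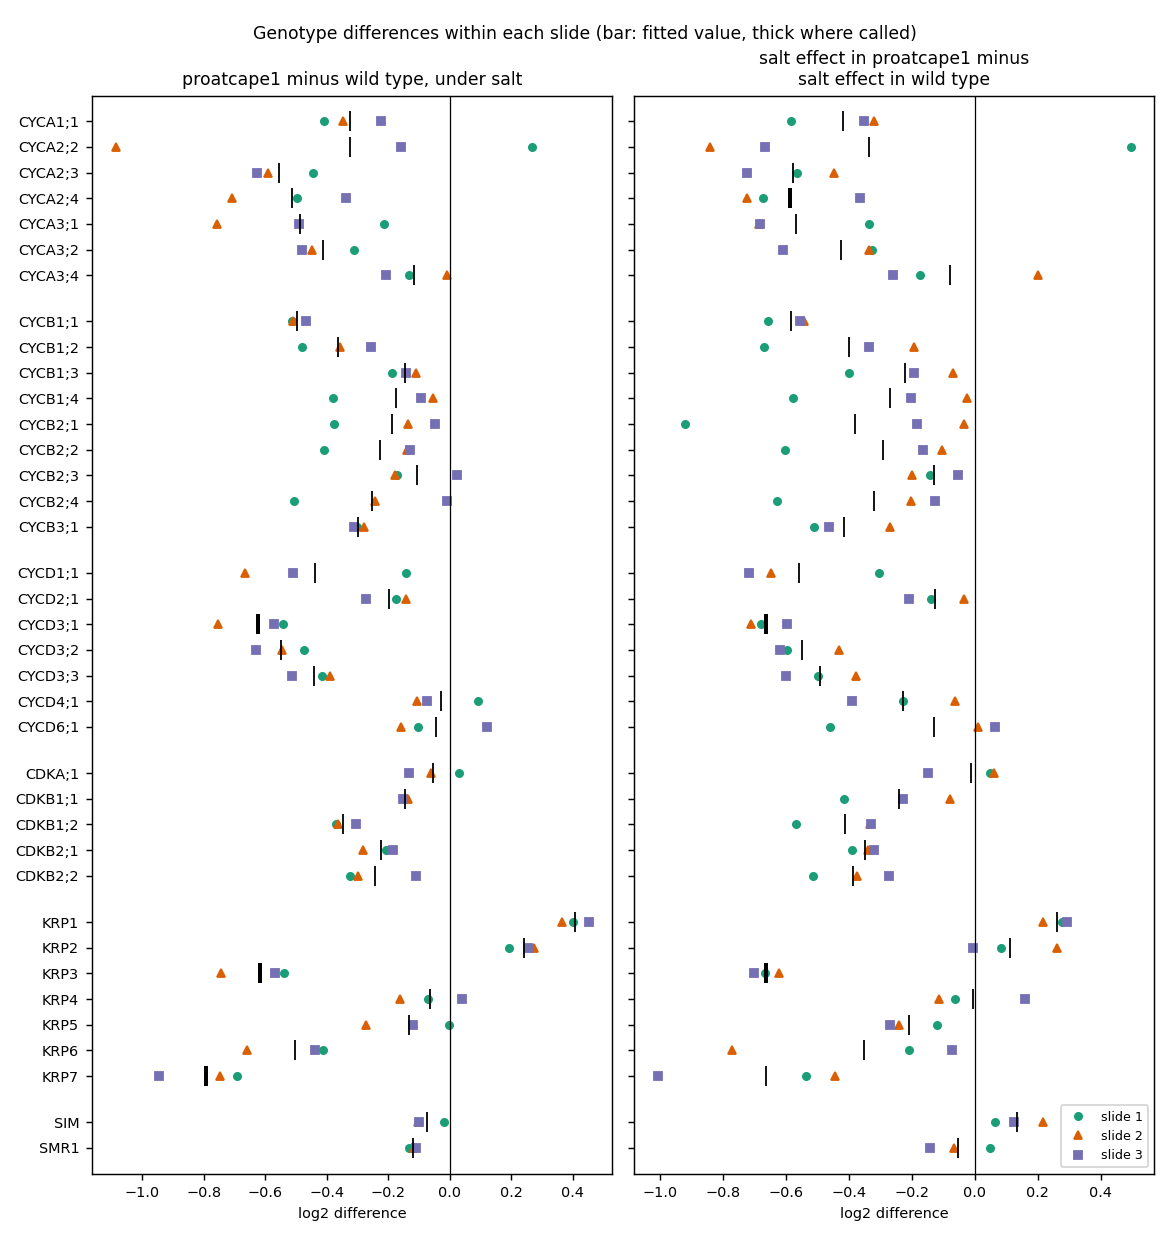
Log2 difference between genotypes under salt (left, proatcape1 minus wild type) and between the salt effects of the genotypes (right, proatcape1 minus wild type) for the 37 tested members, with 1 symbol per slide and the fitted value as a bar, thick where called. The symbols of CYCD3;1, KRP3 and CYCB1;1 lie close together left of 0, those of CYCA2;2 are spread widely, and KRP1 lies right of 0 on every slide.

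The salt effect in proatcape1 minus the salt effect in wild type was tested directly. As both effects run from 0 h to 12 h, a different response to NaCl and a different course over the 12 h cannot be told apart. The difference of salt effects was called in 3 members, all lower, where 2.56% of all genes tested were called (1.29% lower and 1.27% higher). CYCD3;1 differed by -0.66 ± 0.097 (adjusted p = 0.0104), KRP3 by -0.66 ± 0.14 (adjusted p = 0.0229) and CYCA2;4 by -0.59 ± 0.14 (adjusted p = 0.0321). The last stood at the fold limit, with 1.501-fold. CYCB1;1 had the smallest adjusted p of all members (0.00417) and, at -0.58 ± 0.065, just missed the fold limit. KRP7 had a difference as large as that of KRP3 (-0.66 ± 0.20) with a wider error, and did not pass (adjusted p = 0.0711).

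At any size, 11 members passed the adjusted p as lower (4.82% of all genes) and 1 as higher (2.84% of all genes). The higher one was KRP1 (0.26 ± 0.054, adjusted p = 0.0236). The 11 were 5 A-type cyclins, 4 D-type cyclins, CYCB1;1 and KRP3. The kinases gave 0, by adjusted p values of 0.0597 (CDKB1;2) and above. The difference was below 0 in 34 of 37 members (55.2% of all genes) and below 0 on all 3 slides in 28 (30.2% of all genes), and the class medians were -0.42 for A-type, -0.32 for B-type and -0.49 for D-type cyclins, -0.35 for the kinases and -0.21 for the KRP inhibitors, against -0.026 over all genes.

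The number of called differences in salt effect depended on single arrays. It was 9 without the first salt-treated wild type array, 7 without the second proatcape1 control array, 6 without the third wild type control array and 5 without the third salt-treated proatcape1 array. It was 1 without the first or the third proatcape1 control array, the third salt-treated wild type array or the first salt-treated proatcape1 array. CYCD3;1 was called in all of these fits. KRP3 and CYCA2;4 were called in the fits that gave 5 or more. In the fits that gave 1, KRP3 had differences of -0.67 to -0.58 (adjusted p = 0.0507 to 0.0558) and CYCA2;4 of -0.60 to -0.53 (adjusted p = 0.0635 to 0.0796). With no filter on dim probes both also missed the adjusted p (0.0524 for KRP3 and 0.0693 for CYCA2;4), and with normexp their differences were -0.44 (adjusted p = 0.042) and -0.34 (adjusted p = 0.118). CYCA2;4 further missed the adjusted p without the first (0.0603) or the second (0.0574) wild type control array. The same held without the second salt-treated wild type array (0.0747) or the second salt-treated proatcape1 array (0.0654). KRP3 missed it without the second salt-treated wild type array (0.05305). An unchanged count can thus hide a change of members.

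The filter on dim probes touches these counts. Of the 37 members 33 passed it in all 4 groups, and CYCA2;2 (AT5G11300), CYCA3;1, CYCB2;3 and KRP3 passed in all groups but salt-treated proatcape1, where their signals were lowest. Among the 33 members, 22 fell and 1 rose with salt in proatcape1, 20 fell in wild type, 2 were lower in proatcape1 under salt (CYCD3;1 and KRP7) and 2 had a lower salt effect (CYCD3;1 and CYCA2;4). For 3 members a second probe was kept. In CYCA2;3 it gave a salt effect of -0.63 in proatcape1 and -0.20 in wild type, in CYCA3;2 -1.20 and -0.70, and in SIM -0.58 and -0.68, in that order of genotypes.

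Other genes of the cycle were read from lists drawn up by role. Beside the counts in these lists, 26.2% of all genes tested fell with salt in proatcape1 and 21.8% in wild type. The shares of all genes that rose were 19.6% and 17.5% in that order. Among 14 tested genes of DNA replication, 14 fell with salt in proatcape1 and 13 in wild type, with medians of -1.41 and -0.77 in that order. CDC6A, which licenses origins, had 7.83, 8.45 and 8.64% in salt-treated proatcape1 and 12.6, 16.4 and 13.1% in salt-treated wild type, against 31.3, 30.9 and 31.4% in proatcape1 control and 33.8, 30.6 and 30.1% in wild type control, and PCNA1, the sliding clamp of the replication fork, changed by -1.72 in proatcape1 and -0.97 in wild type. FAS1, a subunit of chromatin assembly factor 1, changed by -1.42 and -1.09. Under salt 10 of the 14 were lower in proatcape1 than in wild type (1.95% of all genes). The salt effect was lower in 11 (1.29% of all genes). Among these 11 were all 6 MCM helicase genes, whose difference in salt effect lay between -0.79 (MCM7) and -0.59 (MCM2). These shares of the list are above those of the 37 members, in which 3 were called in each of the same comparisons, and this contrast between lists was not tested.

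The retinoblastoma and E2F genes, which connect the D-type cyclins to the replication genes, were mixed. With salt 4 of 9 tested were lower in each genotype, against 26.2% of all genes in proatcape1 and 21.8% in wild type. E2FA, an activator of S phase genes that was named after its values were seen, gave 11.2, 12.8 and 11.9% in salt-treated proatcape1 and 17.6, 20.4 and 18.4% in salt-treated wild type, against 29.5, 29.3 and 32.6% in proatcape1 control and 31.6, 30.2 and 31.1% in wild type control. It was lower in proatcape1 under salt (-0.65, adjusted p = 3.40e-04) and in its salt effect (-0.63, adjusted p = 0.0123). The atypical E2F genes DEL1 and DEL3 had the largest changes of the list, at -1.63 and -1.61 in proatcape1 and -1.05 and -1.21 in wild type, and DEL1 was also lower in proatcape1 under salt (-0.61, adjusted p = 8.01e-04).

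All 12 tested genes of mitosis and cytokinesis fell in proatcape1 and 11 in wild type, and 0 of them were called between the genotypes under salt. TES, a kinesin needed for cytokinesis after male meiosis, MAD2 of the spindle checkpoint and MAP65-3 of the phragmoplast, which led the list in 1 genotype or both, had changes of -1.54, -1.64 and -1.70 in proatcape1 and -1.42, -1.33 and -1.24 in wild type. MYB3R4, an activator of G2 and mitosis genes, was the 1 of 4 MYB3R genes that fell (-1.53 and -1.16). Among 5 activators of the anaphase-promoting complex 3 fell in each genotype, led by CDC20.1 (-1.77 and -1.38) and CDC20.2 (-1.81 and -1.52). Of 8 genes of CDK activation and the CKS subunits, 6 fell in proatcape1 and 4 in wild type, with WEE1, the inhibitory kinase of the replication checkpoint, at -1.65 and -1.06 and CKS2 at -1.18 and -0.95. The salt effect on WEE1 was also lower in proatcape1 (-0.59, adjusted p = 0.0211). Of 2 further cyclins tested, CYCB1;5 fell, by 2.87-fold in proatcape1 and 2.05-fold in wild type.

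**Figure D5:**
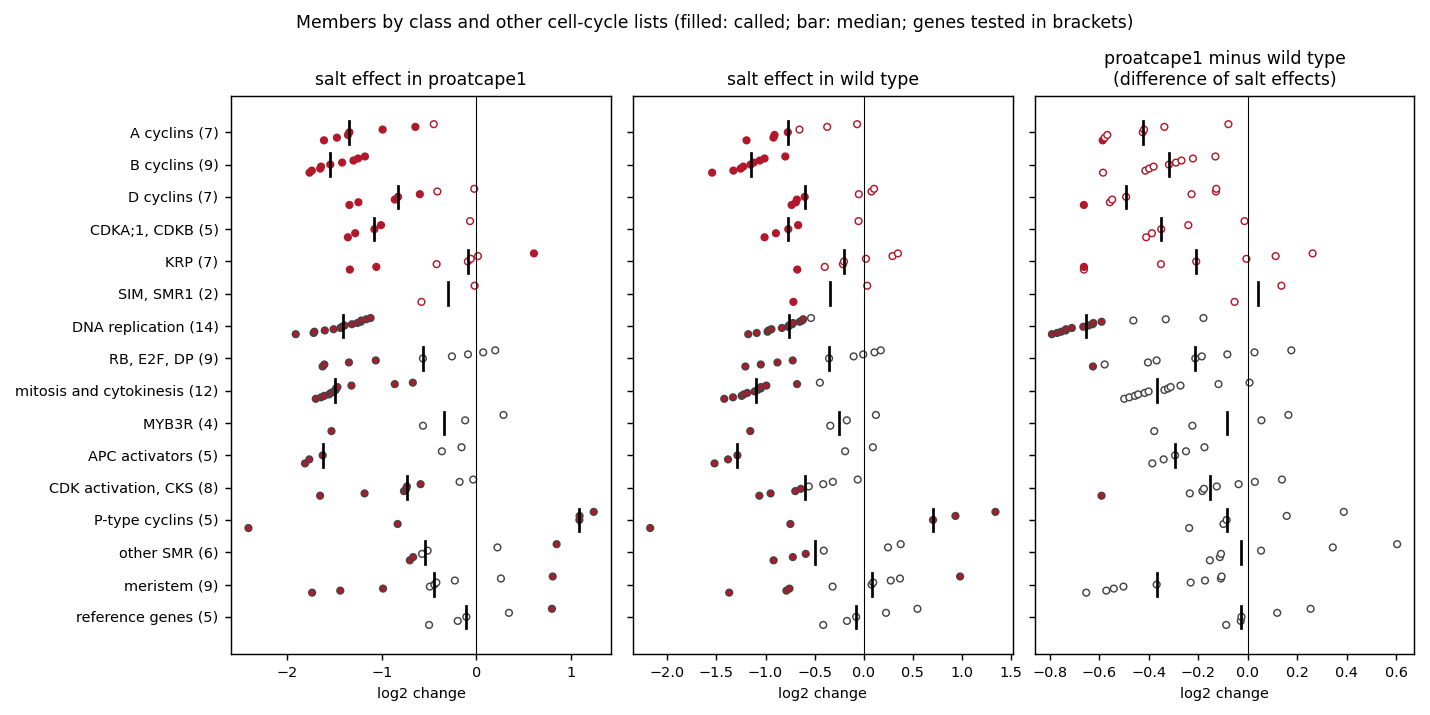
Log2 change of each tested gene by class and list (rows, number of genes in brackets) for the salt effect in proatcape1, the salt effect in wild type, and their difference; filled points were called and bars are medians. Replication, mitosis and B-type cyclin genes lie left of 0 in the first 2 panels, and in the third the replication genes have the lowest median, -0.65.

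The P-type cyclins resemble the yeast cyclin PHO80, which acts in phosphate signalling. Of 5 tested, 3 rose in both genotypes (CYCP1;1, CYCP2;1 and CYCP4;2) and 2 fell (CYCP3;1 and CYCP4;1). CYCP2;1 gave 85.8, 88.3 and 90.0% in salt-treated proatcape1 and 76.6, 75.9 and 84.6% in salt-treated wild type, against 35.5, 38.4 and 37.6% in proatcape1 control and 27.6, 34.3 and 31.9% in wild type control. CYCP4;1 gave 10.1, 9.51 and 9.98% in salt-treated proatcape1 and 8.49, 11.51 and 11.2% in salt-treated wild type, against 51.8, 52.4 and 53.3% in proatcape1 control and 41.7, 52.5 and 45.9% in wild type control, and shifted by -2.41 (proatcape1) and -2.18 (wild type). Among 6 further SMR inhibitors, SMR3 gave 99.5, 93.7 and 89.7% in salt-treated proatcape1 and 56.7, 42.5 and 51.2% in salt-treated wild type, against 52.7, 55.8 and 48.4% in proatcape1 control and 37.2, 49.2 and 40.2% in wild type control. It rose in proatcape1 (0.85, adjusted p = 4.74e-05) and not in wild type (0.25, adjusted p = 0.0767), and under salt was higher in proatcape1 (0.92, adjusted p = 8.88e-04), while the difference of its salt effects had an adjusted p of 0.0542. SMR4 and SMR8 fell in both genotypes. SMR7 fell in wild type (-0.92) and was lower in proatcape1 than in wild type in control (-0.73, adjusted p = 0.0491).

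Markers of root, shoot and meristem were measured on the same arrays. Of 4 root markers, COBL9 and EXPA7, both of root hairs, fell in both genotypes and GL2 in proatcape1, while SCR was called in neither. The 4 summed to 115 to 123% of the 75th percentile in salt-treated proatcape1 and 128 to 159% in salt-treated wild type, against 202 to 228% in proatcape1 control and 217 to 249% in wild type control. Of 3 shoot markers LHCB2.4 rose in both genotypes and RBCS1A and CAB2 were not called, and the 3 summed to 47260 to 50830% in salt-treated proatcape1 and 42000 to 43230% in salt-treated wild type, against 38070 to 42880% in proatcape1 control and 37950 to 41240% in wild type control. Of 9 tested meristem genes 3 fell and 1 rose in each genotype, so that 44.4% were called, against 45.8% of all genes in proatcape1 and 39.3% in wild type. ANT and PLT1 were among those that fell, at -1.74 and -1.44 in proatcape1 and -1.37 and -0.79 in wild type, and WOX5 of the root quiescent centre rose (0.81 and 0.98). The 11 meristem genes with a probe summed to 410.2 to 449.8% in salt-treated proatcape1 and 449.6 to 505% in salt-treated wild type, against 701 to 754% in proatcape1 control and 638 to 722% in wild type control. Each sum adds different probes and so follows its brightest genes. The fall of the meristem sum lay mostly in CLV1 and ANT. CLV1 gave 159.0 to 185.2% in salt-treated proatcape1 and 171.9 to 207.8% in salt-treated wild type. In control it gave 324.2 to 351.8% in proatcape1 and 297.5 to 353.0% in wild type. WOX5 and SCR lay higher after salt in both genotypes, and SCR is in the root sum too. The shoot sum is mostly RBCS1A and CAB2. WUS and CLV3, which define the shoot stem cell niche, were not well above background on any control array. Under salt WUS was well above background on 2 of 3 proatcape1 and 1 of 3 wild type arrays. The part of tissue proportions in the changes of the members was not tested. Among 5 reference genes UBQ10 was called in proatcape1 (0.80), with 0.55 in wild type, and the median of the 5 was -0.10 in proatcape1 and -0.076 in wild type.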

How the data were processed

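Each of 12 samples of total RNA was hybridized, with Cy3 as its dye, to an Agilent Arabidopsis 4×44k array. The scanner files deposited by the authors, read with Feature Extraction, give a background-corrected intensity per spot on a linear scale, not scaled between arrays. The authors' normalized log2 values, made in GeneSpring, were used as an alternative; after the same centring they differed from the values computed here by an SD of at most 0.00565.

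Spots of a probe were averaged after outlier flags were left out (76 of 43603 probes), and the log2 of the 75th percentile of an array was subtracted from its log2 intensities. Probes were kept with a signal over 100 and a coefficient of variation under 50% on all 3 arrays of at least 1 group (28833 probes). The limits follow the methods of the study, which state them for the raw signal. Probe accessions were paired with loci through RefSeq names (34306 probes), each gene was represented by its brightest kept probe, and 19027 genes were tested. Cross-hybridization between paralogues was not examined.

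One limma model (limma 3.58.1, R 4.3.3) of the 4 group means gave all comparisons. It was tested on simulated data first. Tables and figures were made in Python 3.11.15 with pandas 2.3.3, numpy 2.4.6 and matplotlib 3.10.9. Slides 1, 2 and 3 held replicates 1, 2 and 3 of every group, so that the slide and the replicate number are the same block; slides 1 and 2 were scanned on 1 day. After removal of group means, salt-treated samples with the same number correlated across genotypes (r = 0.31, 0.23 and 0.37), and control samples did so less (0.088, 0.19 and 0.30). The labels name 3 independent experiments; the number of arrays limits the precision.

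Members and lists were chosen with earlier results of these data known. Every member is accounted for; members called in any comparison, and in each class the uncalled member with the largest change, are given by array, and in each list the 2 largest called salt changes in each direction are named. Alternatives covered background correction, quantile normalization, the authors' values, 2 other filters, the mean of probes, the arrays in the fit, blocks for replicate, slide and scan day, unadjusted p, no fold limit and the omission of each array. Motif searches in promoters and proteins were not run, as no sequences were used here.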

Additional observations from a re-analysis of the deposited data

Results flagged for a closer look

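By the test of the difference itself (limma, adjusted p at most 0.05), 11 members were lower and 1 higher, against 4.82% and 2.84% of all genes. In the main fit the salt effect thus differed between the genotypes in 12 members. It was lower in proatcape1 for CYCD3;1 (-0.66), KRP3 (-0.66) and CYCA2;4 (-0.59), which also passed the 1.5-fold limit. Below that limit it was lower for CYCB1;1 (-0.58), CYCA2;3 (-0.58), CYCA3;1 (-0.57), CYCD1;1 (-0.56), CYCD3;2 (-0.55), CYCD3;3 (-0.49), CYCA3;2 (-0.42) and CYCA1;1 (-0.42). KRP1 was the exception with a higher salt effect (0.26). The calls of KRP3 and CYCA2;4 were lost with normexp, with no filter on dim probes and without several of the single arrays. Members below the fold limit were not followed through these alternatives here, so their adjusted p values hold for the main fit only. Those of CYCA2;3 (0.0328), CYCA1;1 (0.0384) and CYCD1;1 (0.04175) were larger there than that of CYCA2;4 (0.0321).

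Among the other genes named by the rule, the salt effect was lower in proatcape1 for PCNA1 (-0.75), CDC6A (-0.74), WEE1 (-0.59), DEL1 (-0.58), DEL3 (-0.40), MYB3R4 (-0.38) and ANT (-0.37), and higher for the reference gene UBQ10 (0.25). Arrays were left out 1 at a time in the alternatives, but no separate test for outlying arrays was run.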

How the results depend on the processing

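Of 185 pairs of a member and a comparison 56 were called, and 43 of these kept their call and sign in every alternative other than a changed threshold. No called value changed sign, while several small uncalled differences of single members did. Without 1 array each, 3 class means near 0 changed sign: between genotypes in control the A-type mean (0.036, range -0.010 to 0.075) and the KRP mean (0.0072, range -0.020 to 0.041), and in the difference of salt effects the SIM and SMR1 mean (0.041, range -0.00080 to 0.083). With the replicate block, which is also the slide block, the counts of members stayed at 26 lower and 1 higher with salt in proatcape1, 23 lower in wild type, 3 between genotypes under salt and 3 in the difference of salt effects.

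With no fold limit the counts were 2 higher in wild type with salt, 2 higher and 17 lower between genotypes under salt, and 1 higher and 11 lower in the difference of salt effects. With no filter on dim probes, or with the filter on probes well above background, 1 member (CYCD7;1) was higher with salt in wild type. The lower differences of salt effects numbered 1 with no filter and 1 with normexp background correction, which also gave 23 lower and 0 higher with salt in proatcape1, without CYCA2;2, CYCA2;3, CYCD3;2 and KRP1 (0.58), and 18 lower in wild type, without CDKB1;2, CYCB2;1, CYCD4;1, CYCD6;1 and KRP3. Without 1 array each, the lower counts ranged from 25 to 27 with salt in proatcape1, 22 to 24 in wild type, 1 to 6 between genotypes under salt and 1 to 9 in the difference of salt effects. The causes were not tested.

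Normexp background correction gave smaller mean class changes with salt, in proatcape1 -0.89 (A-type), -1.24 (B-type), -0.83 (kinases) and -0.24 (KRP), and in wild type -0.58 (A-type), -0.99 (B-type), -0.31 (D-type) and -0.61 (kinases). It gave -0.15 for the kinases between genotypes under salt, and -0.31 (A-type) and -0.17 (KRP) for the difference of salt effects. With either other filter, under which more members enter a class, the D-type mean was -0.52 (proatcape1) and -0.11 (wild type). The A-type mean in wild type was -0.77. Without 1 array each, the wild type means ranged from -0.75 to -0.66 (A-type), -0.41 to -0.32 (D-type) and -0.71 to -0.66 (kinases), the SIM and SMR1 mean between genotypes under salt from -0.13 to -0.060, and the KRP mean in the difference of salt effects from -0.25 to -0.17. In salt-treated proatcape1 4 of 37 members did not pass the filter on dim probes.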
